A study of Mus musculus with 6 samples.

Results

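The genes described here build the machinery that imports proteins into mitochondria. They were found through the symbols of the platform's probe annotation: every probe set whose single symbol starts with Timm or Tomm followed by a digit, or is Hspa9, Hspd1, Hspe1, Pmpca, Pmpcb, Samm50, Dnajc19, Grpel1, Chchd4, Mtx1, Mtx2 or Oxa1l. The rule found 72 of the 45101 probe sets on the array, covering 34 of 18194 genes with a single symbol. No probe set carries Dnajc19 as its only symbol, so that gene has no value here. Of the 72 probe sets, 69 passed the filter on low signal (a mean log2 intensity of at least 4), and each of the 34 genes kept at least 1 probe set.

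The cells were an undifferentiated mouse embryonic stem cell line (27H10 in the series title, 27H in the sample titles) that is Dicer -/- and therefore cannot process microRNA precursors. All 6 samples carry this deletion. In 3 samples the cells had received synthetic mimics (Dharmacon) of the mmu-miR-290 cluster, microRNAs that embryonic stem cells normally make in abundance, and in 3 samples an siRNA against Renilla luciferase (siRL, the control siRNA), which has no intended target in mouse cells. RNA was examined 24 h after transfection, with 1 Affymetrix array per sample. The cells are of 1 line, and the labels do not tie replicates to independent cultures. The p-values therefore reflect how much these particular samples varied, and that variation may be technical. The values are linear intensities, and the number of arrays limits their precision.

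Nearly all mitochondrial proteins are made in the cytosol and carried into the organelle. The TOM complex of the outer membrane is the common entry gate. From there the small TIM chaperones of the intermembrane space escort hydrophobic precursors to the TIM22 and SAM complexes, while the TIM23 complex and its ATP-driven motor pull proteins with a cleavable presequence into the matrix, where a peptidase trims them and a chaperonin folds them. Embryonic stem cells divide fast and depend on a steady supply of such proteins.

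The labels name the microRNA cluster but not which of its members the mimics copied. The cluster's mature 3p microRNAs in the RefSeq table (GRCm38.p6, plus strand of chromosome 7) are shown because mimics of this cluster separate the groups. Whether each of them was among the mimics is not given. They are printed 5′ to 3′ with the seed (bases 2 to 8) in capitals.
mmu-miR-290a-3p: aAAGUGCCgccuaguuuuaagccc
mmu-miR-291a-3p: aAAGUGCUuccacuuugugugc
mmu-miR-291b-3p: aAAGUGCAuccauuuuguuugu
mmu-miR-293-3p: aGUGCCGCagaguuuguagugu
mmu-miR-294-3p: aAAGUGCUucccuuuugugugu
mmu-miR-295-3p: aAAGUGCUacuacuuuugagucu
Among these 6, mmu-miR-291a-3p, mmu-miR-294-3p and mmu-miR-295-3p share 1 seed (3 of 6), and each of the others has a seed unlike the rest shown. No mature mmu-miR-292a-3p was available, so the seeds of the whole cluster were not compared. Matches of these seeds in the transcripts of the import genes were not analysed here.

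Changes of the import genes were small and mostly upward. No import gene passed limma's main test (Benjamini-Hochberg adjusted p under 0.05, adjusted over all 29167 tested probe sets): 0 of 69 import probe sets against 1.29% of all tested probe sets (0.343% higher and 0.946% lower), and 0 of 34 genes against 1.83% of all 13815 tested genes. At an unadjusted p under 0.05 in limma, 12 import probe sets were higher and 0 were lower with the mimics, while 20.1% of all probe sets passed that level, made up in part by the 8.49% that were higher. The smallest adjusted p of the list was 0.0579, for Timm8a1. Where the brightest probe set stood for its gene, 27 of the 34 genes had a mean above that of the control arrays and 7 a mean below it. Of all tested genes 48% had a mean above that of the control arrays.

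A second setting of limma lets the prior variance follow the signal level and estimates it robustly (the level-dependent robust prior). It lowers the SE of bright probe sets, and with it 6 of the 34 import genes passed, all higher with the mimics: Timm8a1, Tomm40, Timm10b, Timm9, Timm13 and Tomm7. In the same setting 6.2% of all tested genes were higher and 9.43% were lower, and 15.6% were called in either direction. Of the 69 import probe sets, 10 were higher and 0 lower, where 4.73% and 6.56% of all probe sets were. The log2 fold changes are the same in both settings, while the SEs and p-values differ.

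With the constant prior, a filter at a mean log2 of 6 let 4 import genes pass (Timm8a1, Tomm40, Timm10b and Timm9; 4.95% of all genes were higher). An offset of 16 before the logarithm let Timm8a1 pass (0.861% of all genes), and so did averaging the probe sets of each gene (1.16%). With the robust prior, median centring added Tomm70a to the 6 genes (7.76% of all genes) and quantile normalization left out Tomm7 (6.85%). Timm8a1, Tomm40 and Timm10b kept their robust call whichever array was left out.

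The median log2 fold change of the 34 import genes (mimics minus control) was 0.11, against −0.01 over all tested genes. On each array the median deviation of the import genes from their own mean over the 6 arrays was 0.07, 0.07 and 0.04 on the mimic arrays, against −0.06, −0.03 and −0.05 on the control arrays, on the log2 scale. The groups did not overlap in this measure. All tested genes gave 0.0027, 0.0034 and 0.0031 on the mimic arrays and 0.016, 0.0182 and 0.0304 on the control arrays. Tested genes with a mean log2 intensity of at least 11 gave 0.031, 0.024 and 0.004 on the mimic arrays, against −0.033, 0.0078 and −0.02 on the control arrays, and there the groups overlapped.

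Over all genes the median change differed with signal level, from −0.07 at a mean log2 of 8 to 9 to 0.08 above 14. It was also above 0 in the dimmest bin (0.04 at 4 to 5). The part of signal level in the import genes' values was not tested. Tested genes with a mean log2 intensity of at least 11 had a median log2 fold change of 0.04 and 58.8% of them were above 0, and 14.5% of them were called higher with the level-dependent robust prior. Of the import genes, 23 lie in that range, with a median of 0.13, 20 above 0 and 5 called higher. Above a mean log2 of 14 the median of all genes reached 0.08, close to the 0.08 to 0.11 of the 3 import genes there, Tomm20, Hspd1 and Hspe1. The changes of these 3 genes are thus near those of all genes of their brightness, while Timm8a1, Tomm40, Timm10b and Timm9 lie above the 90th percentile of all genes in their level bins.

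**Figure D1:**
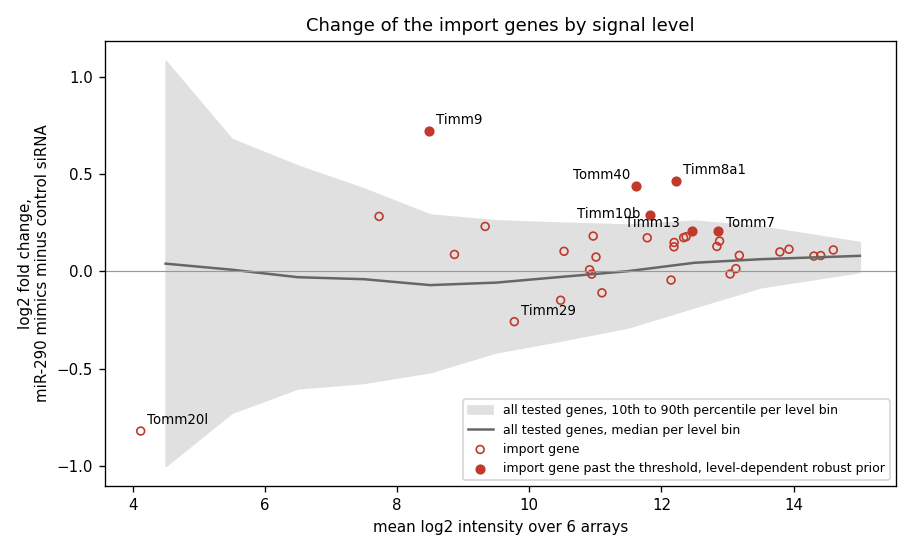
Log2 fold change of each import gene (vertical axis, miR-290 mimics minus control siRNA) against its mean log2 intensity over the 6 arrays (horizontal axis). The grey band runs from the 10th to the 90th percentile of all tested genes in bins of level and the line is their median; filled points passed the threshold with the level-dependent robust prior. Most import genes lie a little above 0, and Timm9, Timm8a1, Tomm40 and Timm10b stand above the band.

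The group with the largest changes was the small TIM chaperones, which ferry hydrophobic precursors across the intermembrane space. All 7 measured members were higher in mean with the mimics, with log2 fold changes of 0.13 to 0.72 and a median of 0.28; 0 passed the main test and 4 passed with the level-dependent robust prior, where 6.2% of all genes were higher and 14.5% of the genes at a mean log2 of 11 or more, a range that holds 5 of these 7. In 6 of the 7 the lowest mimic array was above the highest control array. That pattern was shown in this direction by 16.2% of all tested genes and by 29.9% of those at a mean log2 of 11 or more.

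Timm8a1 encodes a small TIM that works with Timm13 and whose human counterpart is mutated in deafness-dystonia syndrome. Its intensity was 5732, 5576 and 5487 on the mimic arrays, against 3869.65, 4152 and 4163 on the control arrays. Every mimic array lay well above every control array. The means were 5598 ± 124 with the mimics and 4061 ± 166 with the control siRNA (SD, n = 3 each), a log2 fold change of 0.46 ± 0.071 SE or 1.38-fold, with a limma adjusted p of 0.0579 in the main test and 0.000252 with the level-dependent robust prior. A second Timm8a1 probe set gave 2081 ± 78.9 with the mimics and 1552 ± 34.9 with the control siRNA (SD, n = 3 each; log2 fold change 0.42, limma adjusted p = 0.0633, and 0.00131 with the robust prior). Both probe sets thus showed a change of similar size. The related Timm8a2 had 272, 207 and 227 with the mimics, against 204, 189.8 and 184 with the control siRNA, and did not pass either test (0.28 ± 0.12 SE). Its only probe set is of a kind that can bind transcripts of several related genes, so its signal may include Timm8a1.

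Timm13, the partner of Timm8a1, had 6183, 6079 and 5948 with the mimics, against 5076, 5541 and 5149.6 with the control siRNA. The groups did not overlap, and the log2 fold change was 0.21 ± 0.073 SE (limma adjusted p = 0.204, and 0.023 with the robust prior). That call was kept without 2 of the 6 arrays when each was left out in turn, mimic replicate 3 and control replicate 2, and lost without each of the other 4 (limma adjusted p up to 0.0958). For Timm8b, a further small TIM, the values were 4962, 4901 and 4766 with the mimics, against 4466, 4555 and 4389 with the control siRNA (0.13 ± 0.066 SE). These groups did not overlap either, but Timm8b passed neither test (limma adjusted p = 0.362 and 0.133).

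Timm9 and Timm10 form the hexamer that carries metabolite carriers to the inner membrane. Timm9 had 524, 357 and 526 with the mimics, against 257, 298 and 286 with the control siRNA. Mimic replicate 2 was nearer to the control arrays than the other mimic arrays were, and the groups did not overlap. The log2 fold change, 0.72 ± 0.18 SE or 1.65-fold, was the largest upward one of the 34 genes (limma adjusted p = 0.119, and 0.0107 with the robust prior). Its robust call was lost without mimic replicate 1 (limma adjusted p = 0.0542). A dim second Timm9 probe set gave 0.65 and did not pass.

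Timm10 had 5985, 4613 and 5972 with the mimics, against 4622, 5042 and 4941 with the control siRNA. Mimic replicate 2 was again the low array of its group, here below every control array, so the groups overlapped (0.17 ± 0.13 SE, limma adjusted p = 0.512). Without that array the log2 fold change was 0.30, and it still did not pass (limma adjusted p = 0.23, against 0.557 to 0.743 without each other array). Timm10b, which sits with this hexamer on the TIM22 complex, had 3844, 4162 and 4054 with the mimics, against 3126, 3358 and 3377 with the control siRNA. The groups were apart, and the log2 fold change was 0.29 ± 0.076 SE (limma adjusted p = 0.127, and 0.00691 with the robust prior). Of its 3 further probe sets, 2 gave 0.38 and 0.22 and passed with the robust prior, and 1 with intensities of 16.4 to 45.8 gave −0.39 and did not.

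**Figure D2:**
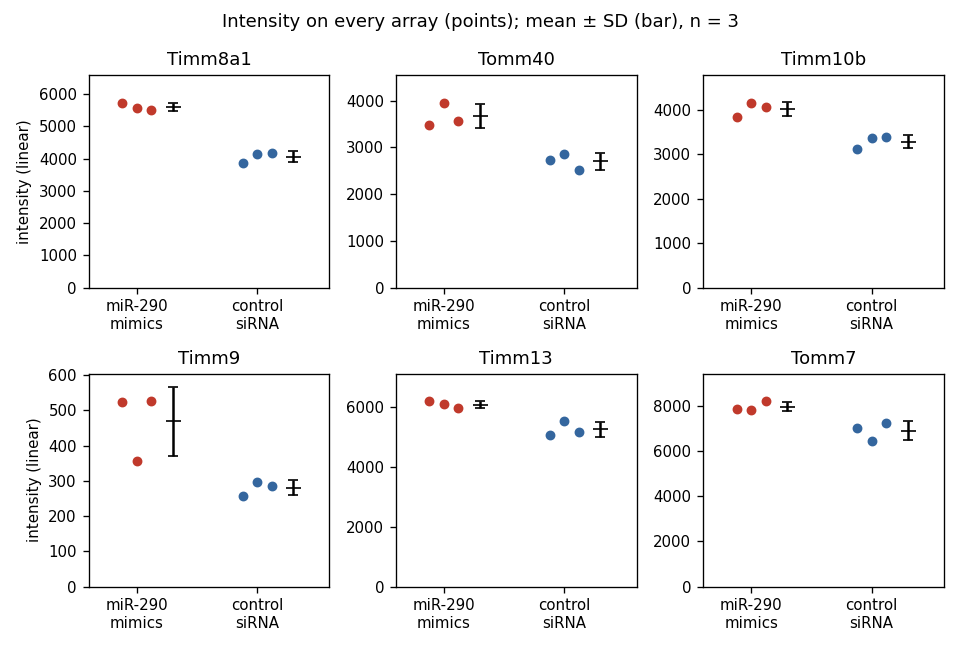
Linear intensity (vertical axes, from 0) of the 6 import genes past the threshold with the level-dependent robust prior, on each mimic array (red, left) and control array (blue, right). Bars show the mean ± SD of 3 arrays; in all 6 panels the lowest mimic array is above the highest control array, and the gap is widest for Timm8a1.

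At the outer membrane, Tomm40 and Tomm7 passed with the level-dependent robust prior and the brightest probe set of no receptor gene did. Tomm40, the channel through which precursors enter, had 3484, 3960.2 and 3560.01 with the mimics, against 2742, 2870.4 and 2513 with the control siRNA. All mimic arrays exceeded all control arrays, with means of 3668 ± 256 with the mimics and 2708 ± 181 with the control siRNA (SD, n = 3 each; log2 fold change 0.44 ± 0.094 SE, 1.35-fold). The limma adjusted p was 0.0889 in the main test and 0.00212 with the robust prior, and the robust call held whichever array was left out. Its relative Tomm40l had 483, 493 and 468 with the mimics, against 515, 401 and 452 with the control siRNA, groups that overlap (0.09 ± 0.11 SE).

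Tomm7, a small subunit that tunes the assembly of the complex, had 7856, 7819 and 8189.7 with the mimics, against 7027, 6425 and 7229 with the control siRNA. The groups did not overlap (0.21 ± 0.079 SE, limma adjusted p = 0.234, and 0.0289 with the robust prior). This was the least stable of the 6 calls: it was kept without control replicate 3 alone, lost without each other array (limma adjusted p up to 0.096) and lost with quantile normalization (0.086). Its 3 further probe sets gave 0.15, 0.13 and 0.33, and 0 of them passed.

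Of the receptors, Tomm20, which binds presequences, had 26152, 24997 and 26193 with the mimics, against 23224, 23556 and 24931 with the control siRNA. The lowest mimic array was just above the highest control array (0.11 ± 0.071 SE, limma adjusted p = 0.451, and 0.127 with the robust prior). Quantile normalization brought this difference to 0.016, and other bright genes were lowered likewise (Timm17a to 0.023, Timm23 to 0.046, Samm50 to 0.034). All 5 further Tomm20 probe sets were higher in mean, by 0.04 to 0.21, and 1 of them passed with the robust prior (0.15, limma adjusted p = 0.0302). Tomm70a, the receptor for carrier precursors, had 3657, 3743 and 3829 with the mimics, against 3386, 3227 and 3357 with the control siRNA (0.17 ± 0.068 SE, limma adjusted p = 0.248, and 0.056 with the robust prior). The groups were apart here, but of its 3 other tested probe sets 2 gave values below 0 (−0.05 and −0.11) and 1 gave 0.12. Tomm22, the central receptor, had 4089.98, 4737 and 4572 with the mimics, against 4677.5, 4747 and 4383 with the control siRNA, and overlapped (−0.05 ± 0.089 SE). Tomm20l, a relative of Tomm20, was near the floor on all arrays, at 24.7, 3.32 and 27.4 with the mimics, against 24.1, 18.5 and 27.8 with the control siRNA, so its log2 fold change of −0.82 ± 0.88 SE rests on 1 dim array.

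Genes of the sorting and assembly machinery, which inserts barrel-shaped proteins into the outer membrane, passed neither test. Its core gene Samm50 had 9741, 9656 and 9188 with the mimics, against 8685, 9285 and 9052 with the control siRNA (0.08 ± 0.071 SE). The metaxin genes Mtx1 and Mtx2 gave 0.13 ± 0.080 SE and −0.01 ± 0.066 SE, and of the 3 genes Mtx1 alone had groups that did not overlap. Tomm34, a cytosolic partner of chaperones, gave 0.07 ± 0.066 SE. Chchd4, the oxidoreductase that traps small TIMs and other cysteine-rich proteins in the intermembrane space, had 8159, 8331 and 7377 with the mimics, against 6981, 7702 and 6759 with the control siRNA. Those groups overlapped (0.15 ± 0.093 SE, limma adjusted p = 0.416, and 0.15 with the robust prior).

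Of the inner membrane translocase genes, 0 were called in either setting. By their brightest probe sets, all 5 measured genes of the presequence translocase lay between 0.10 and 0.23. Its channel gene Timm23 had 16856, 16215 and 15583 with the mimics, against 14770.2, 16043 and 14213 with the control siRNA (0.11 ± 0.082 SE). Timm17a, the partner of the channel, had 14676, 14892 and 14426 with the mimics, against 13443, 14234 and 13404 with the control siRNA (0.10 ± 0.068 SE), and its groups did not overlap. The presequence receptor gene Timm50 had 1523, 1663 and 1407 with the mimics, against 1421, 1409.8 and 1438 with the control siRNA (0.10 ± 0.087 SE), and its groups overlapped. A dimmer Timm50 probe set gave −0.56, and the average of both was −0.23. Timm17b and Timm21 gave 0.18 ± 0.14 SE and 0.23 ± 0.12 SE, with groups that overlapped. A second Timm17b probe set gave −0.03 ± 0.071 SE, and the average of both was 0.074.

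In the carrier translocase, the channel gene Timm22 had 2004, 2253 and 2144 with the mimics, against 1843, 1963 and 1837 with the control siRNA (0.18 ± 0.081 SE, limma adjusted p = 0.295, and 0.106 with the robust prior). The lowest mimic array was above the highest control array, but a dim second probe set gave −0.29 and the average of both −0.057. Timm29, a subunit known from human cells, had 821, 699 and 892 with the mimics, against 793, 1199 and 924 with the control siRNA, where control replicate 2 was far above the others (−0.26 ± 0.19 SE).

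The 3 import motor genes had log2 fold changes of −0.01 to 0.01. Hspa9, the mitochondrial Hsp70 that drives the motor, had 8876, 9518 and 8559.9 with the mimics, against 8584, 9369 and 8744 with the control siRNA (0.01 ± 0.081 SE). Its nucleotide exchange factor Grpel1 had 8708, 8216 and 8191 with the mimics, against 8559, 8709 and 8095 with the control siRNA (−0.01 ± 0.073 SE). Timm44, which tethers Hspa9 to the channel, had 2081, 1689 and 2054 with the mimics, against 1884, 1966 and 1919 with the control siRNA (0.01 ± 0.11 SE). The groups overlapped for all 3 motor genes, although a dimmer Timm44 probe set gave 0.26 with groups that did not overlap (limma adjusted p = 0.18, and 0.0718 with the robust prior).

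By their brightest probe sets, the subunits of the peptidase that removes presequences went apart in mean. Pmpcb, the catalytic subunit, had 5061, 4896 and 4815 with the mimics, against 4489.6, 4724 and 4137 with the control siRNA (0.15 ± 0.081 SE). Pmpca, the other subunit, had 2035, 2242 and 2062 with the mimics, against 2153, 2362 and 2331 with the control siRNA (−0.11 ± 0.082 SE). The groups did not overlap for Pmpcb and overlapped for Pmpca, and 0 of the subunits passed. A second Pmpcb probe set gave −0.05, the sign of Pmpca, and the average of both was 0.047. The second Pmpca probe set gave −0.03.

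Hspd1 and Hspe1 encode the large and the small subunit of the matrix chaperonin from neighbouring genes that lie head to head. Hspd1 had 23179.8, 22129.5 and 21795 with the mimics, against 19087, 23123 and 21419.5 with the control siRNA (0.08 ± 0.097 SE). Hspe1 had 21093, 21105 and 20219 with the mimics, against 19164, 19973 and 19999 with the control siRNA (0.08 ± 0.068 SE). Neither passed a test. Without control replicate 1 the values were 0.0068 for Hspd1 and 0.058 for Hspe1, and with quantile normalization 0.014 and 0.0098. Oxa1l, which inserts proteins into the inner membrane from the matrix side, had 1382, 1364 and 1308 with the mimics, against 1494, 1586 and 1419 with the control siRNA. It was the 1 gene whose mimic arrays all lay below the control arrays (−0.15 ± 0.078 SE, limma adjusted p = 0.358, and 0.208 with the robust prior), against 19.3% of all tested genes. Its dimmer probe sets went the other way, at 0.17 and 1.07, so the direction rests on the probe set used.

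**Figure D3:**
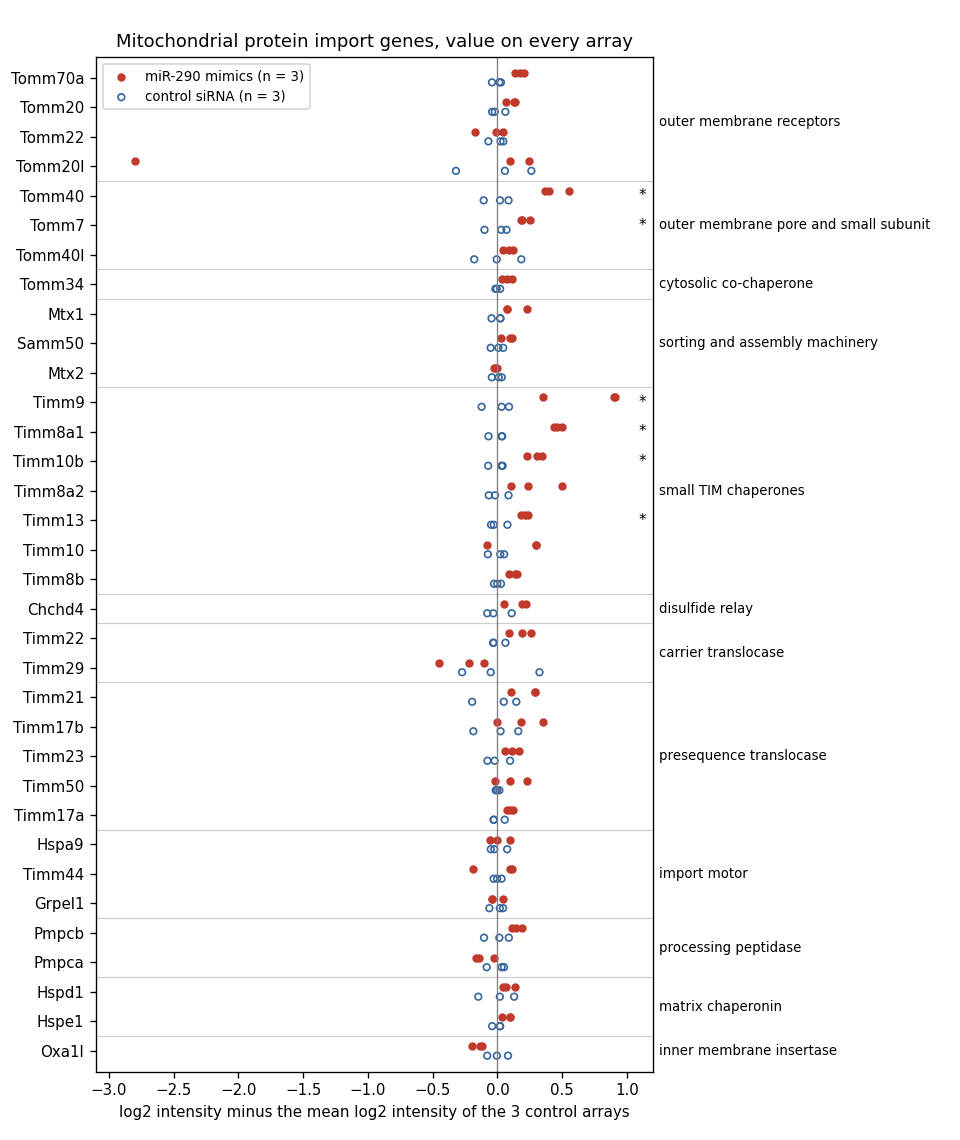
Log2 intensity of the 34 import genes on each array (horizontal axis), relative to the mean log2 intensity of the 3 control arrays, with genes grouped by their place in the import machinery. Filled red points are mimic arrays and open blue points control arrays, and an asterisk marks the 6 genes past the threshold with the level-dependent robust prior, 4 of them small TIM chaperones and 2 of the outer membrane pore group.

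Over all 34 genes, 16 had mimic arrays that all lay above the control arrays and 1, Oxa1l, had them all below, where 16.2% and 19.3% of all tested genes did so. Among tested genes with a mean log2 of at least 11 the upward share was 29.9%, against 13 of the 23 import genes there. Probe sets of 1 gene did not always agree: of 35 further tested probe sets, in 20 genes, 23 had the sign of the brightest one. The array holds 12 import probe sets of the x_at kind and 6 of the s_at kind, which can bind transcripts of related genes.

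Promoter sequences of 30 of the 34 genes were in the RefSeq table (GRCm38.p6), as 33 windows of 250 bases before an annotated transcript start. Nuclear genes for mitochondrial proteins are known to be regulated by NRF1 and by the ETS factor GABP, so the windows were searched on both strands for GCATGCGC (NRF1) and CCGGAAG (ETS), motifs that share no position in the windows printed. CCGGAAG was present in 16 of the 33 import windows (48.5%), against 12.2% of the windows of all tested genes and 6.9% of all windows. GCATGCGC was present in 2 of 33 (6.1%), Grpel1 and Timm13, against 4% of the windows of all tested genes. Among the 6 genes called with the robust prior, Timm8a1, Tomm40, Timm10b and Timm9 held neither, Timm13 held GCATGCGC, and Tomm7 was not searched. A match is a description of letters, and some windows overlap, as those of Hspd1 and Hspe1 do.

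The windows of Timm8a1 and Tomm40, with the smallest adjusted p-values, of Timm13, which holds the NRF1 motif, and of Grpel1, the 1 import gene whose window holds both motifs, are printed on the gene's own strand. Capitals mark the 2 motifs and CCAAT (also searched as ATTGG, and chosen after the Tomm40 window was read).
Timm8a1 (chrX:134541671-134541920, minus strand): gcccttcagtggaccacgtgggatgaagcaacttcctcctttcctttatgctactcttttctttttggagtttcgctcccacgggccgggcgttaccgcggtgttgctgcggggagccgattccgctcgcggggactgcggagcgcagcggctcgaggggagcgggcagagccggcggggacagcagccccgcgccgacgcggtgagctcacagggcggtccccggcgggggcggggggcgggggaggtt
Tomm40 (chr7:19715430-19715679, minus strand): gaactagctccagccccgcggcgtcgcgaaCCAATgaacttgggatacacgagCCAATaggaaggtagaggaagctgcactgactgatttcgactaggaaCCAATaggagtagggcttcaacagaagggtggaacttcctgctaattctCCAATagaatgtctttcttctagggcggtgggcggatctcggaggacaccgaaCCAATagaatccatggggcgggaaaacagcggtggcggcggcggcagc
Timm13 (chr10:80900970-80901219, minus strand): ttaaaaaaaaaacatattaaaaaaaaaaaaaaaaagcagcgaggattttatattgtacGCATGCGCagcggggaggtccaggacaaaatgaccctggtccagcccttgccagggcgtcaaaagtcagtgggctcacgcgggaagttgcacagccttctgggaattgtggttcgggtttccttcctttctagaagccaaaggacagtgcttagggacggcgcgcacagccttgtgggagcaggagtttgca
Grpel1 (chr5:36464935-36465184, plus strand): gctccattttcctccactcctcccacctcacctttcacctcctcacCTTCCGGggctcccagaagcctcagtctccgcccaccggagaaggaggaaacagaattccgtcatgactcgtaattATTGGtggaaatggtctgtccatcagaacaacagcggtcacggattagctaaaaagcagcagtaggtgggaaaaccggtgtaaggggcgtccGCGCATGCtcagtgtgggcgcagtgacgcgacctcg
The Timm8a1 window holds none of the 3 motifs. The Tomm40 window holds CCAAT 5 times, and 0.35% of the windows of all tested genes hold it at least as often, a share that describes a motif picked from this window. Over the import windows CCAAT was present in 8 of 33 (24.2%), against 34.9% of the windows of all tested genes. In the Grpel1 window the ETS motif starts 204 bases and the NRF1 motif 36 bases before the transcript start, and in the Timm13 window the NRF1 motif starts 192 bases before it. The change of Grpel1 itself was among the smallest of the import genes.

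Further genes of import and membrane insertion were listed from textbook knowledge. Of 30 measured, 0 passed the main test, and with the level-dependent robust prior 3 were higher and 2 were lower, with a median of 0.02. These counts are near the background of that setting, 6.2% of all genes higher and 9.43% lower. The higher ones were Immp1l, a subunit of the inner membrane peptidase (log2 fold change 0.29 ± 0.064 SE, limma adjusted p = 0.00322 with the robust prior), Pitrm1, which degrades cleaved presequences (0.26), and Immt, a core protein of the cristae junctions (0.19). The lower ones were Pink1, a kinase that import of its own precursor keeps at low level in healthy mitochondria (625 ± 30.3 with the mimics and 949 ± 100.5 with the control siRNA, SD, n = 3 each, −0.60 ± 0.11 SE, limma adjusted p = 0.00213 with the robust prior), and the outer membrane channel gene Vdac3 (−0.19). The brightest members, Hspa8 and Vdac1, gave 0.01 and −0.02. Gfer, which reoxidises Chchd4, gave 0.22 and did not pass.

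Of 15 mitochondrial proteases and chaperones outside the rule, 0 passed the main test, and Htra2 (0.39) and Phb2 (0.20) were higher and Spg7 (−0.52) was lower with the robust prior (6.2% of all genes higher, 9.43% lower). The brightest members, Phb2 and Parl, gave 0.20 and 0.09, and the median of the list was 0.09. Of 16 measured regulators of mitochondrial biogenesis, 0 passed the main test and 3 were higher with the robust prior, against the same 6.2% of all genes. Tfam packages mitochondrial DNA and takes part in its transcription. Its values were 2581 ± 122 with the mimics and 1752 ± 133 with the control siRNA (SD, n = 3 each, 0.56 ± 0.091 SE, limma adjusted p = 0.0618, and 0.00054 with the robust prior). Myc (0.54) and Atf4 (0.29) were the other higher genes, while Nrf1 (0.10), Gabpa (0.01) and Yy1 (0.05) did not pass.

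The mitochondrial ribosomal protein genes, other nuclear genes of mitochondria, gave values like those of the import genes. Of 76 measured, 0 passed the main test, 20 were higher and 2 lower with the robust prior (6.2% and 9.43% of all genes, and 14.5% higher among the bright genes at a mean log2 of 11 or more), and the median log2 fold change was 0.10, against 0.11 for the import genes. The largest calls upward were Mrpl13 (0.62) and Mrps17 (0.45), and the lower genes were Mrpl14 (−0.34) and Mrps7 (−0.25). The brightest genes, Mrpl51 and Mrpl22, gave 0.08 and 0.06. The cytosolic chaperonin, which has the same task as Hspd1 and Hspe1 outside the organelle, had a median of 0.10 over 8 genes. In the main test 0 of the 8 passed. With the robust prior Cct8 (0.18) and Cct7 (0.15, limma adjusted p = 0.0496) were higher and Cct2 (−0.18) was lower. In that setting 6.2% of all genes and 14.5% of the bright ones were higher, and 9.43% of all genes were lower. The brightest members of this chaperonin were Cct2 and Cct4 (0.11). These lists were not tested against the import genes.

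**Figure D4:**
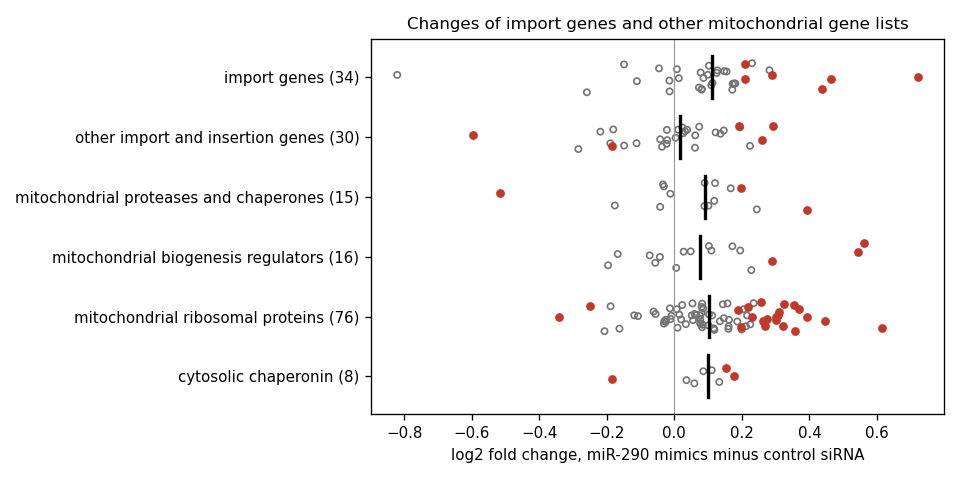
Log2 fold change (horizontal axis, miR-290 mimics minus control siRNA) of every measured gene of the import list and of 5 other lists, with the number of genes in brackets. Red points passed the threshold with the level-dependent robust prior and black bars are medians, which lie at 0.11 for the import genes, 0.10 for the mitochondrial ribosomal proteins and 0.02 for the other import and insertion genes.

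The arrays had median intensities of 41.7 to 44.9 and correlated at 0.963 to 0.969 within groups and 0.959 to 0.964 between them (log2 values of tested probe sets), and 28.5% to 30.1% of an array's probe sets had intensities below 16. All 10 markers of undifferentiated embryonic stem cells were measured. Their summed intensity was 118813 to 124790 with the mimics, against 110086 to 118999 with the control siRNA. With the robust prior 3 (Esrrb, Utf1 and Tcl1) were higher, where 6.2% of all genes and 14.5% of the bright ones were. Of the 10 markers, 8 had a mean log2 difference above 0, while Nanog (−0.05) and Sox2 (−0.02) were below it. Pou5f1 (0.10) and the brightest, Dppa5a and Zfp42, did not pass. Of 10 fibroblast markers, 6 were measured, with sums of 531 to 653 with the mimics, against 665 to 744 with the control siRNA. S100a4 was lower with the robust prior, where 9.43% of all genes were. Above 0 were 2 of the 6, Pdgfrb (0.43, limma adjusted p = 0.0859, and 0.151 with the robust prior) and Thy1 (0.10). The brightest, Acta2 and Thy1, did not pass. The defining collagen genes Col1a1, Col1a2 and Col3a1 and also Postn were under the filter, and no collagen probe set exceeded 32.2 on any array. Of 13 measured markers of differentiated lineages, Krt8, Krt18 and Sox1 were lower in the main test, where 0.946% of all probe sets were. The keratin genes Krt8 and Krt18, the brightest of the list, were also lower with the robust prior, where 9.43% of all genes were. Sums over the list were 3593 to 3665 with the mimics, against 4921 to 5299.7 with the control siRNA. The keratins make up most of these sums, Sox1 did not pass with the robust prior (limma adjusted p = 0.0569), and 6 of the 13 markers had a mean log2 difference above 0, none of which passed. The part of these marker differences in the values of the import genes was not tested. In RNA from a whole culture, fewer cells of a type and less RNA per cell cannot be told apart.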

How the data were processed

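For each of 6 arrays (3 with miR-290 mimics, 3 with control siRNA, grouped by sample title) the authors deposited a linear intensity per probe set. GCRMA is the tool given in the submitters' processing notes and normally returns log2 values, yet on every array the mean without the lowest and highest 2% of the deposited intensities is 500.004, as global scaling gives. Which tool made them, and how background was corrected, is not given in the sources used here, so low values cannot be told from background. Intensities were log2-transformed without an offset, and 64 control probe sets and 15870 probe sets with a mean log2 under 4 were left out. Symbols came from the platform annotation: 34958 probe sets had 1 symbol, 932 several, and 9211 are unnamed here. Each gene was represented by its brightest probe set (highest mean log2).

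The test was limma 3.58.1 (R 4.3.3; lmFit, eBayes with a constant prior variance, 2-sided, Benjamini-Hochberg over all tested probe sets, threshold 0.05), on all 6 arrays and without covariates, and was tested on simulated data. There, with 50 probe sets altered by 1.25-fold, the main test found 0% of them and the level-dependent robust prior 20%. At 1.5-fold these shares were 18% and 28%, and at 2-fold they were 34% and 48%. A gene that did not pass may therefore still have changed by such an amount. Log2 fold changes are mimic minus control means on the log2 scale with limma's moderated SE of the main test, and SDs are of linear intensities. Alternatives were the level-dependent robust prior, median centring, quantile normalization, no filter, a filter at a mean log2 of 6, an offset of 16, averaging all probe sets of a gene, the replicate number as a block and leaving out each array. Combinations with the robust prior and the range of genes with a mean log2 of at least 11 were chosen after seeing the data. The members and lists were chosen with earlier results of these data known, and no set test was run. Values on every array were given for a fixed set of 20 core genes and for genes past the threshold in the main test or, by brightest probe set, with the robust prior; values of other import genes on every array were added to show the rest of their groups. Of other lists, members past the threshold and the 2 brightest were named (of the mitochondrial ribosomal genes higher with the robust prior, only 2); Gfer, Nrf1 and Gabpa were added after their values were seen.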

Additional observations from a re-analysis of the deposited data

How the results depend on the processing

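The count of import genes past the threshold depended on the setting, and all calls were upward. It was 0 in limma's main test and stayed at 0, with 4 to 8 genes at an unadjusted p under 0.05, with median centring, quantile normalization, no filter, the replicate number as a block and without each array in turn. It was 6 genes and 10 probe sets with the level-dependent robust prior, 4 genes and 6 probe sets with a filter at a mean log2 of 6 (Timm8a1, Tomm40, Timm10b and Timm9, where 4.95% of all genes were higher), 1 gene and 1 probe set with an offset of 16 (Timm8a1, adjusted p = 0.0469; 0.861% of all genes) and 1 gene after averaging all probe sets of each gene (Timm8a1, adjusted p = 0.0391; 1.16%). Combined with the robust prior, median centring gave 7 genes and 13 probe sets (7.76% of all genes higher), quantile normalization 5 and 9 (6.85%), and the replicate block 6 and 10. Without each array in turn it gave 3 to 5 genes and 5 to 9 probe sets with the robust prior, and 0 of each with the constant prior; without mimic replicate 1 it gave the 3.

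Over all probe sets, the 376 calls became 3293 with the robust prior, 2373 with the filter at 6, 628 with the offset, 153 with median centring, 0 without a filter (5645 at an unadjusted p under 0.05), 0 with the replicate block (5189) and 0 to 1 without each array (4612 to 5205). Same-numbered samples deviated together at correlations of −0.0061, 0.0123 and 0.0242, against −0.0257 to 0.0126 for differently numbered ones. All these values are near 0, and they cannot show whether same-numbered samples were handled together.

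The median change of the import genes was 0.16 with median centring, which moved the median of all genes to 0.03, and 0.085 with quantile normalization, and 0.10 to 0.13 without each array in turn. Single changes were followed through the settings for 24 of the 34 genes, and 7 of these 24 turned sign in at least 1 setting. Over all 34 genes, median centring moved the number above 0 from 27 to 30. With median centring Grpel1 was 0.032 and Tomm22 0.0011, and with quantile normalization Hspa9 was −0.032. After that averaging, which weights dim ones equally, Hspa9 was −0.18, Oxa1l 0.36, Timm22 −0.057 and Timm50 −0.23. Without each array in turn Grpel1 ranged from −0.045 to 0.0077, Hspa9 from −0.029 to 0.051, Timm44 from −0.046 to 0.10 and Tomm22 from −0.089 to 0.017. The cause was not tested. Low signal limits what can be said of Tomm20l and of dim second probe sets.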
